A study of Mus musculus with 9 samples.

Results

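The genes described here are the G1 cyclins, their kinases, a kinase inhibitor and the Rb family in mouse prostate cancer cells in which Nsd2 was silenced or that were treated with a compound labelled MCTP. The list names 10 genes (Ccnd1, Ccnd2, Ccnd3, Ccne1, Cdk4, Cdk6, Cdkn1b, Cdkn2a, Rb1 and Rbl1), matched by gene symbol. Values for 9 of the 10 were used, of 12842 genes in all, and Cdkn2a was not analysed here. All 9 passed the filter on low values in each comparison.

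NPK cells come from lung metastases of NPK mice, a prostate cancer model with an inducible Cre recombinase at the Nkx3.1 locus, and every group shares this background. RNA-seq of polyadenylated RNA was made from 3 libraries of control cells, 3 of cells carrying an shRNA against Nsd2 (shNsd2) and 3 of cells treated with MCTP. Which shRNA was used, and whether control cells carried any, is not in the labels. The MCTP labels carry the numbers 39, 40 and 41, and whether these are different compounds or a numbering of libraries is not known here. The study names only number 39, used as a putative inhibitor of NSD2. If they differ, the MCTP group mixes compounds and its spread is not that of replicates. The dose and time of MCTP were not found for these cells. The shNsd2 titles name Nsd2 throughout, but their source labels run through Nsd2, Nsd3 and Nsd4. Nothing in the labels says that libraries of a group came from separate cultures, so p-values measure the spread between libraries, which may be technical.

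D-type cyclins bind Cdk4 and Cdk6 and begin to phosphorylate the Rb family, and cyclin E with Cdk2 carries this further as cells leave G1. Phosphorylated Rb proteins release E2F factors, which then drive genes of DNA replication. The inhibitor p27, encoded by Cdkn1b, restrains cyclin E with Cdk2, and its loss is frequent in prostate cancer.

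Values are on the log2 scale deposited by the authors, and depth per library is unknown. MCTP replicate 2, labelled 40, stood apart from its group. The standard deviation over genes of its difference from the other MCTP libraries was 0.179 and 0.235, where these differed from each other by 0.0913. Libraries also differed in how values follow the GC content of transcripts. Spearman's rho over 12513 genes between a library's deviation from the mean of all libraries and GC content was -0.607, -0.331 and -0.187 in control replicates 1 to 3. It was 0.454, -0.317 and 0.564 in the MCTP libraries, and 0.110, 0.131 and -0.289 in the shNsd2 libraries. These are correlations across genes, which are not independent replicates.

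The labels were first checked on the silenced gene. Nsd2, a methyltransferase of histone H3, had log2 values of 12.48, 12.43 and 12.42 in control, 11.56, 11.61 and 11.68 in shNsd2 and 12.15, 12.21 and 12.07 in MCTP libraries. It was lowest in all 3 shNsd2 libraries, and no groups overlapped. Nsd2 fell by 0.83 with shNsd2 (limma adjusted p = 2.26e-06) and by 0.30 with MCTP (adjusted p = 0.00562). Nsd1 fell by 0.49 with MCTP (adjusted p = 0.00968), and its change with shNsd2 was -0.02 (adjusted p = 0.824). Nsd3 did not pass the test against control with shNsd2 (-0.02, adjusted p = 0.744) or MCTP (-0.20, adjusted p = 0.119), but passed with MCTP without MCTP replicate 2 (-0.29, adjusted p = 0.00266).

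Per kilobase of transcript, the control levels of the 9 genes spanned from 13.40 for Ccnd1 to 6.44 for Cdk6 on the log2 scale. Ccnd1 stood at the 98.5th percentile of 12513 genes, Cdk4 (12.45) at the 97.0th and Ccnd2 (11.04) at the 91.5th. Ccnd3 (9.59) and Cdkn1b (9.58) were next and differed by less than their spread between libraries, followed by Rbl1 (8.38), Ccne1 (8.26), Rb1 (7.44) and Cdk6. The Ccnd3 level rests on a transcript of 2113 bases, and its longest transcript, of 3858 bases, would place it lower. These levels also take the deposited values as not already scaled by length, which is not stated.

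**Figure D1:**
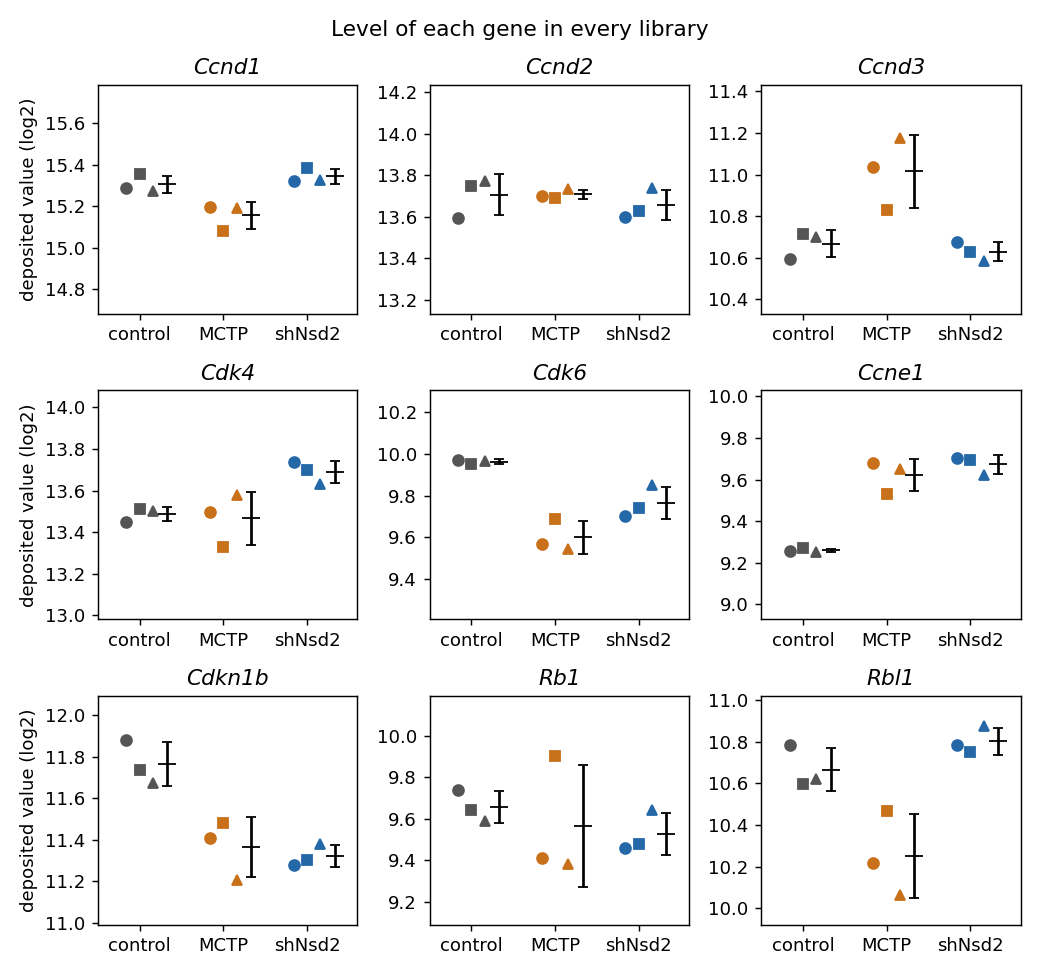
Deposited log2 value of each gene in the control, MCTP and shNsd2 libraries, with replicates 1, 2 and 3 as circle, square and triangle and the mean with its SD (n = 3) in black. Each panel spans the same log2 range, and Ccne1 is above and Cdkn1b below all control libraries in every MCTP and shNsd2 library.

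With shNsd2, 4 of the 9 genes passed the test against control, beside 5836 of 12205 genes tested (47.8%). Of these, 2 were higher, beside 2815 genes (23.1%), and 2 were lower, beside 3021 (24.8%). With MCTP, 5 of 9 passed, beside 4305 of 12216 (35.2%), with 2 higher beside 2198 (18%) and 3 lower beside 2107 (17.2%). Between shNsd2 and MCTP cells, 4 of 9 differed, beside 5276 of 12217 (43.2%), with 3 higher in shNsd2 beside 2513 (20.6%) and 1 lower beside 2763 (22.6%). With shNsd2 the share of the 9 genes was thus near that over all genes. With MCTP it was higher, but on 9 genes only, so it is not read as a result about them. When a library was left out, 3 to 6 of the 9 passed with MCTP, and the count over all genes moved too. Without control replicate 1, 3 of 9 passed, beside 2363 of 12207 genes, and without control replicate 2, 4 of 9 beside 2157 of 12208. Without MCTP replicate 2, 6 of 9 passed with MCTP, beside 7372 of all genes. The genes are therefore described one by one. Counts of the gene lists below also changed with the setting, as did those over all genes. With shNsd2, 4453 of 12196 genes passed without shNsd2 replicate 1 and 6771 of 11931 after correction for GC content. After that correction 5614 of 11940 passed with MCTP and 6875 of 11935 between shNsd2 and MCTP cells. In bulk RNA, fewer cells in a phase of the cycle and less RNA per cell cannot be told apart.

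Among the D cyclins, Ccnd1 (cyclin D1) had log2 values of 15.29, 15.35 and 15.27 in control, 15.20, 15.08 and 15.19 in MCTP and 15.32, 15.39 and 15.32 in shNsd2 libraries. All 3 MCTP libraries lay below the others, and control and shNsd2 libraries overlapped. The change was 0.04 with shNsd2 (95% interval -0.05 to 0.13, limma adjusted p = 0.46) and -0.15 with MCTP (-0.29 to -0.01, adjusted p = 0.0886). The MCTP change passed the threshold after correction for GC content (-0.18, adjusted p = 0.00812), with all 9 libraries in one fit (adjusted p = 0.0336) and after quantile normalization (-0.23, adjusted p = 0.00444). Ccnd1 was higher in shNsd2 than in MCTP cells by 0.19 (adjusted p = 0.0304). That call was lost without MCTP replicate 1 (0.0607), without shNsd2 replicate 1 (0.0887), 2 (0.138) or 3 (0.0885), and after median centring (0.073).

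Ccnd2 (cyclin D2) ranged from 13.59 to 13.77 over the 9 libraries and the groups overlapped. It did not pass the test with shNsd2 (-0.05, limma adjusted p = 0.484) or MCTP (0.00, adjusted p = 0.983). Ccnd3 (cyclin D3) had log2 values of 10.59, 10.71 and 10.70 in control, 11.04, 10.83 and 11.18 in MCTP and 10.68, 10.63 and 10.58 in shNsd2 libraries. The MCTP libraries were the 3 highest, with replicate 2 nearest to control. Ccnd3 rose by 0.35 with MCTP (95% interval 0.14 to 0.55, adjusted p = 0.0219), and its change with shNsd2 was -0.04 (adjusted p = 0.494), which passed after GC correction (-0.10, adjusted p = 0.0148). The MCTP call was lost without MCTP replicate 1 (0.086) and without control replicate 1 (0.0774), 2 (0.0581) or 3 (0.0583). Ccnd3 was lower in shNsd2 than in MCTP cells (-0.39, adjusted p = 0.0102), also with any library left out.

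As a share of the summed level of the 3 D cyclins per kilobase, on the linear scale, Ccnd1 made up 79.0% in control, 79.9% in shNsd2 and 75.9% in MCTP cells, with values of 79.9, 79.0 and 77.9% in the control, 80.0, 80.6 and 79.2% in the shNsd2 and 76.4, 75.8 and 75.5% in the MCTP libraries. Ccnd3 made up 5.46, 5.61 and 5.79% in control, 5.65, 5.28 and 5.25% in shNsd2 and 7.57, 7.05 and 8.28% in MCTP libraries. The Ccnd3 share depends on the length used, with a control mean of 5.62% here, 3.16% with the longest transcript and 2.93% without division by length. The MCTP libraries held the 3 highest Ccnd3 shares and the 3 lowest Ccnd1 shares. Both differences from control had p = 0.1 in exact two-sided permutation tests, the smallest p that 3 libraries against 3 allow.

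Of the kinases, Cdk4 had log2 values of 13.45, 13.51 and 13.50 in control, 13.50, 13.33 and 13.58 in MCTP and 13.74, 13.70 and 13.63 in shNsd2 libraries. The shNsd2 libraries were the 3 highest, and MCTP and control libraries overlapped. Cdk4 rose by 0.20 with shNsd2 (95% interval 0.11 to 0.29, limma adjusted p = 0.00287), and 26.3% of genes tested had a larger change. With MCTP its change was -0.02 (adjusted p = 0.848), of no fixed sign across scalings (0.01 after median centring). Cdk4 was higher in shNsd2 than in MCTP cells by 0.22 (adjusted p = 0.0387), a call lost without MCTP replicate 1 (0.0927), without shNsd2 replicate 1 (0.13), 2 (0.116) or 3 (0.0693), and after median centring (0.0739).

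Cdk6, the other kinase of D cyclins, had log2 values of 9.97, 9.95 and 9.97 in control, 9.57, 9.69 and 9.54 in MCTP and 9.70, 9.74 and 9.85 in shNsd2 libraries. Control libraries were the 3 highest, and no groups overlapped. Cdk6 fell by 0.20 with shNsd2 (limma adjusted p = 0.00654) and by 0.36 with MCTP (adjusted p = 0.00343), and both calls held with any library left out. After GC correction the MCTP change was -0.25 (adjusted p = 0.000968). Between shNsd2 and MCTP cells the difference of 0.16 did not pass (adjusted p = 0.0711), but did after GC correction (0.0233), with all 9 libraries in one fit (0.0313) and without MCTP replicate 2 (0.00756).

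Ccne1 (cyclin E1) had log2 values of 9.26, 9.27 and 9.25 in control, 9.68, 9.53 and 9.65 in MCTP and 9.71, 9.69 and 9.62 in shNsd2 libraries. All 6 treated libraries were above the control libraries, and the treated groups overlapped. Ccne1 rose by 0.41 with shNsd2 (95% interval 0.32 to 0.50, limma adjusted p = 7.05e-05) and by 0.36 with MCTP (0.23 to 0.49, adjusted p = 0.00361). With shNsd2 5.51% of genes had a larger change, and with MCTP 14.0%. Both calls held with any library left out, and shNsd2 and MCTP cells did not differ by the test (0.05, -0.08 to 0.19, adjusted p = 0.491).

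Cdkn1b (p27) had log2 values of 11.88, 11.74 and 11.68 in control, 11.41, 11.48 and 11.20 in MCTP and 11.28, 11.30 and 11.38 in shNsd2 libraries. Each treated library was below each control library. Cdkn1b fell by 0.44 with shNsd2 (95% interval -0.57 to -0.32, limma adjusted p = 0.000266) and by 0.40 with MCTP (-0.60 to -0.20, adjusted p = 0.0109). Both calls held with any library left out, and 4.56% and 10.8% of genes had larger changes. After GC correction the values were -0.38 (adjusted p = 1.84e-06) and -0.23 (adjusted p = 0.00312). shNsd2 and MCTP cells did not differ by the test (-0.04, adjusted p = 0.661), but did after GC correction (-0.14, adjusted p = 0.0151). The 2 comparisons with control share their control libraries.

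Rb1, the retinoblastoma protein gene, had log2 values of 9.74, 9.64 and 9.59 in control, 9.41, 9.90 and 9.38 in MCTP and 9.46, 9.48 and 9.64 in shNsd2 libraries. MCTP replicate 2 was the highest of the 9 and the other MCTP libraries were the lowest, so the groups overlapped. Rb1 passed neither test against control (shNsd2 -0.13, limma adjusted p = 0.104, and MCTP -0.09, adjusted p = 0.604). Without MCTP replicate 2 its MCTP change was -0.26 (adjusted p = 0.00382), after GC correction it was 0.11 (adjusted p = 0.186), and without shNsd2 replicate 3 the shNsd2 change was -0.19 (adjusted p = 0.0214). Against MCTP the shNsd2 value was -0.04 (adjusted p = 0.84), and -0.19 after GC correction (adjusted p = 0.0326).

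Rbl1 encodes p107, an Rb relative that is itself a known E2F target. Its log2 values were 10.78, 10.59 and 10.62 in control, 10.22, 10.47 and 10.07 in MCTP and 10.78, 10.75 and 10.88 in shNsd2 libraries. The MCTP libraries were the 3 lowest, and control and shNsd2 libraries overlapped. Rbl1 fell by 0.42 with MCTP (95% interval -0.66 to -0.18, limma adjusted p = 0.0194), a call lost without MCTP replicate 1 (0.0805) and without control replicate 1 (0.0692) or 3 (0.0505). After GC correction the change was -0.23 (adjusted p = 0.00278). With shNsd2 its change of 0.14 did not pass (adjusted p = 0.0734), but did after GC correction (0.20, adjusted p = 0.000262), after median centring (0.0334) and without control replicate 1 (0.00464). Rbl1 was higher in shNsd2 than in MCTP cells by 0.55 (0.32 to 0.78, adjusted p = 0.00388), also with any library left out.

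**Figure D2:**
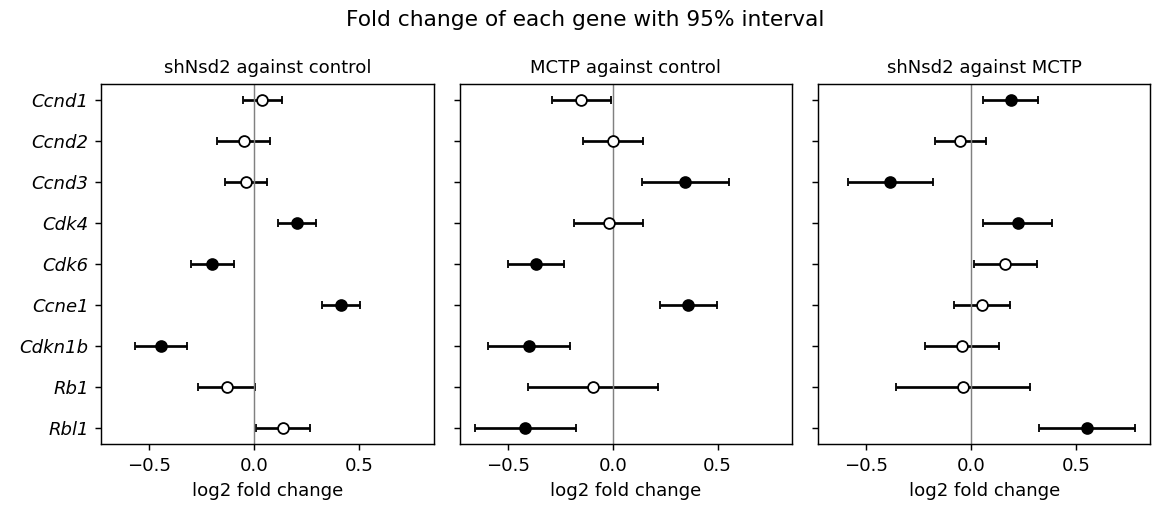
Log2 fold change of each gene in the 3 comparisons, with 95% intervals from limma, filled where the adjusted p is under 0.05. Rbl1 lies at -0.42 with MCTP against control and at 0.55 in shNsd2 against MCTP cells.

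The transcripts of the 9 genes differ in GC content, from 41.2% in Rb1 and 42.1% in Rbl1 to 58.4% in Ccnd3. The 3 that fell with MCTP lie between 42.1 and 45.1%, and the 2 that rose, Ccne1 and Ccnd3, at 52.7 and 58.4%. GC content thus moved with the direction of the MCTP calls, and all 5 kept direction and call after GC correction, with sizes from 0.23 to 0.30 in either direction. That correction also takes away any real change that follows GC content.

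Promoters of 6 of the 9 genes were found in the RefSeq table (build GRCm38.p6), as 7 sequences from 250 bases before to 50 after a start. They were searched on both strands for the E2F words TTTGGCGC, TTTCCCGC, TTTGCCGC and TTTCGCGC, and for the same words without their first T, after the data had been seen. The longer words occur in 2.26% and the shorter in 9.57% of all 32851 promoters. Rbl1 alone among the 6 genes held one. Cdk6 and Cdkn1b, which also fell with MCTP, held none, nor did Ccne1 and Ccnd3, which rose. The 120 bases before the start of Rbl1 are shown because they hold the match. They lie at chr2:157204535-157204654 on the minus strand, and capitals mark the shorter word.
Rbl1: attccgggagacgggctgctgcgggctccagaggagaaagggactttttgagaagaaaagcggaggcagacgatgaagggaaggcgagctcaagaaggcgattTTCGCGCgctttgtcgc
A match describes the letters only and shows no binding.

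Among 30 E2F target genes of the G1/S transition, 17 rose and 2 fell with shNsd2 (median 0.13, beside 0.00 over all genes tested, of which 23.1% rose and 24.8% fell). The number that rose was 11 without shNsd2 replicate 1 and 12 without shNsd2 replicate 2 or control replicate 3. Fen1, a flap endonuclease, rose by 0.39 (limma adjusted p = 0.000355), Mcm5 of the replicative helicase by 0.34 (0.000434) and Cdc6, which loads that helicase, by 0.30 (0.000487). Ccna2 (cyclin A2) fell by 0.24 (0.011) and Gins2 fell by 0.16 (0.0215, and 0.0731 without control replicate 2). With MCTP, 0 rose and 11 fell (median -0.13, beside -0.01 over all genes, of which 18% rose and 17.2% fell). Pola1, of DNA polymerase alpha, fell by 0.73 (0.0104, and 0.0542 without MCTP replicate 1), Usp1 fell by 0.48 (0.0252) and Pcna, the sliding clamp, fell by 0.34 (0.00543). The Usp1 call was lost without control replicate 1 (0.0849) or 2 (0.0711) and without MCTP replicate 1 (0.1) or 3 (0.0626). The number that fell with MCTP was 4 without MCTP replicate 1, 5, 4 and 5 without control replicates 1, 2 and 3, 14 without MCTP replicate 2 and 17 after GC correction. Over all genes, 1067 of 12207 fell without control replicate 1, 942 of 12208 without control replicate 2 and 2832 of 11940 after GC correction. Between shNsd2 and MCTP cells, 25 of 30 were higher in shNsd2 and 0 lower (median 0.28, beside 0.01 over all genes, of which 20.6% were higher and 22.6% lower), led by Pola1 (0.64, adjusted p = 0.011), Cdt1 (0.49, 0.00125) and Usp1 (0.44, 0.0204). Here Pola1 was lost without MCTP replicate 1 (0.0561), and Usp1 without that library (0.086) and without shNsd2 replicate 1 (0.0564) or 3 (0.0726). The number higher was 16 without shNsd2 replicate 1, the lowest of the 6 such values.

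Among 16 E2F, DP and DREAM genes, 6 rose and 2 fell with shNsd2 (median 0.03, beside 0.00 over all genes, of which 23.1% rose and 24.8% fell). Without control replicate 3 or shNsd2 replicate 1 or 2, 4 rose and 1 fell. Mybl2, a factor of late G1 and G2, rose by 0.40 (limma adjusted p = 7.52e-05), E2f4 by 0.39 (0.000105) and E2f2 by 0.37 (0.000198). Tfdp2 fell by 0.23 (0.00297) and E2f5 fell by 0.16 (0.0277), the latter lost without control replicate 2 (0.0559) or 3 (0.0616) and shNsd2 replicate 1 (0.105) or 2 (0.113). With MCTP, 1 rose and 5 fell (median -0.03, beside -0.01 over all genes, of which 18% rose and 17.2% fell). The repressor E2f8 fell by 0.47 (0.00105), also with any library left out. E2f6 rose by 0.18 (0.0244), while Lin54 fell by 0.35 (0.04) and Tfdp2 fell by 0.32 (0.0417). These 3 calls were each lost without any 1 of the control libraries and without MCTP replicate 1 (0.106 for E2f6, 0.143 for Lin54 and 0.109 for Tfdp2), and the Lin54 and Tfdp2 calls also without MCTP replicate 3 (0.107 and 0.0759). Without MCTP replicate 1, 0 rose and 1 fell, without control replicates 1, 2 and 3, 0 rose and 2, 1 and 1 fell, without MCTP replicate 3, 1 rose and 3 fell, and after GC correction 2 rose and 7 fell. In shNsd2 against MCTP cells, 8 were higher and 1 lower (median 0.16, beside 0.01 over all genes, of which 20.6% were higher and 22.6% lower), with 5 higher without MCTP replicate 1 or shNsd2 replicate 1 or 2, with E2f2 (0.61, 9.59e-05), E2f4 (0.41, 0.000717) and E2f8 (0.40, 0.000891) higher and E2f6 lower (-0.25, 0.00434). E2f1 passed neither test against control (0.03, adjusted p = 0.629, and -0.04, 0.563).

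Among 19 other regulators of G1 cyclins and their kinases, 4 rose and 6 fell with shNsd2 (median -0.03, beside 0.00), and 1 rose and 6 fell with MCTP (median -0.14, beside -0.01). Over all genes, 23.1% rose and 24.8% fell with shNsd2, and 18% rose and 17.2% fell with MCTP. With shNsd2, 2 rose without shNsd2 replicate 1 or 2. After GC correction 7 rose and 4 fell with shNsd2 and the median was 0.03, so the direction of the balance depends on that correction, and 2 rose and 7 fell with MCTP. Cdkn1a, the inhibitor p21, had log2 values of 12.38, 12.54 and 12.54 in control, 13.43, 13.29 and 13.56 in MCTP and 12.75, 12.71 and 12.70 in shNsd2 libraries. The groups did not overlap, and MCTP libraries were highest. Cdkn1a rose by 0.94 with MCTP (limma adjusted p = 0.000237) and by 0.23 with shNsd2 (0.0039), and both calls held with any library left out. With shNsd2, Cdc25a, a phosphatase that activates Cdk2, rose by 0.35 (0.000121) and Cdc37, a chaperone partner of Cdk4, by 0.20 (0.0132, lost without shNsd2 replicate 1, 0.0578, or 2, 0.051). Gsk3b fell by 0.38 (0.000166), Cdkn2d (p19) fell by 0.27 (0.00135) and Fbxo4 fell by 0.26 (0.000727). With MCTP, Cks2 fell by 0.30 (0.0315), Ccnh fell by 0.28 (0.0097) and Gsk3b fell by 0.25 (0.0499). After GC correction Ccnh did not pass (-0.05, 0.64), and it was lost without MCTP replicate 1 (0.0511). The Cks2 and Gsk3b calls were lost without control replicate 1 (0.106 and 0.135), 2 (0.0836 and 0.113) or 3 (0.0503 and 0.118) and MCTP replicate 1 (0.125 and 0.168) or 3 (0.0838 and 0.13). Without MCTP replicate 1, 1 rose and 0 fell, without any 1 of the control libraries, 1 rose and 1 fell, without MCTP replicate 3, 1 rose and 2 fell, and without MCTP replicate 2, 2 rose and 10 fell.

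Cdk2, the partner of cyclin E, fell by 0.20 with MCTP (limma adjusted p = 0.0122), a call lost without control replicate 1 (0.0552), 2 (0.0618) or 3 (0.0528) or MCTP replicate 1 (0.0536), and did not pass with shNsd2 (-0.08, 0.0848). Ccne2 (cyclin E2) passed neither test (0.22, 0.191, and -0.16, 0.54), but did with shNsd2 without control replicate 1 (0.39, 0.0007) and with MCTP without MCTP replicate 2 (-0.36, 0.039). Rbl2 (p130) passed neither (-0.06, 0.331, and -0.14, 0.114), but did with MCTP without MCTP replicate 2 (0.0351). Cdkn2b was not analysed here. In shNsd2 against MCTP cells, 6 of the 19 were higher and 3 lower (median 0.08, beside 0.01 over all genes, of which 20.6% were higher and 22.6% lower). Skp2, of the ligase that degrades p27, was higher by 0.33 (0.00362), Cks2 by 0.33 (0.0116, and 0.0529 without MCTP replicate 1) and Cdc25a by 0.29 (0.00213). Cdkn1a (-0.71, 0.00032), Fbxo4 (-0.36, 0.00187) and Mnat1 (-0.15, 0.0378) were lower, with Mnat1 lost without any 1 of the shNsd2 libraries and without MCTP replicate 1 (0.0876) or 3 (0.0579).

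Among 20 G2/M and mitotic genes, 8 rose and 1 fell with shNsd2 (median 0.09, beside 0.00 over all genes, of which 23.1% rose and 24.8% fell). The number that rose was 5 without control replicate 3 or shNsd2 replicate 1 or 2, and 2 fell without control replicate 3. The kinase Aurka rose by 0.31 (limma adjusted p = 0.000276), the factor Foxm1 by 0.24 (0.00053) and the kinase Plk1 by 0.22 (0.00419), and Cdc25c fell by 0.21 (0.00187). With MCTP, 2 rose and 8 fell (median -0.17, beside -0.01 over all genes, of which 18% rose and 17.2% fell). Cdc20 rose by 0.24 (0.0341) and Kif20a by 0.21 (0.0204), while Mki67, a proliferation marker, fell by 0.54 (0.0285), Top2a fell by 0.38 (0.033) and Aurkb fell by 0.23 (0.00898). Of these 5, Aurkb was lost without control replicate 2 (0.0546), and the others without control replicates 1 or 2 or MCTP replicate 1 (for Mki67 0.0931, 0.0812 and 0.114). Mki67 and Top2a were also lost without MCTP replicate 3 (0.0785 and 0.0854), Cdc20 without MCTP replicate 3 (0.088) or control replicate 3 (0.113), and Kif20a without control replicate 3 (0.0873). Without control replicates 1, 2 and 3, 0 rose and 1, 0 and 5 fell, without MCTP replicate 1, 0 rose and 2 fell, without MCTP replicate 3, 1 rose and 1 fell, and without MCTP replicate 2, 4 rose and 12 fell. Mki67 did not pass with shNsd2 (0.02, 0.849). In shNsd2 against MCTP cells, 9 were higher and 0 lower (median 0.18, beside 0.01 over all genes, of which 20.6% were higher and 22.6% lower), led by Bub1 (0.59, 0.0169), Mki67 (0.57, 0.0137) and Top2a (0.55, 0.0053). Bub1 and Mki67 were lost without MCTP replicate 1 (0.0771 and 0.0658) or shNsd2 replicate 3 (0.0609 and 0.0519). The number higher was 4 without either of these libraries, 6 without shNsd2 replicate 1, 13 with 2 lower without MCTP replicate 2, and 15 after GC correction.

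Markers of other cell types were checked because bulk RNA can mix them. Of 6 luminal markers 5 were used, with Krt8 the most abundant, and the log2 of their sum was 16.87, 17.04 and 16.98 in control, 17.15, 16.94 and 17.26 in MCTP and 16.90, 16.84 and 16.74 in shNsd2 libraries. Of 4 basal markers 3 were used, with Krt15 the most abundant, and the log2 of their sum was 12.64, 12.68 and 12.68 in control, 12.94, 12.68 and 12.94 in MCTP and 11.83, 11.74 and 11.70 in shNsd2 libraries. The sum was thus lowest in the shNsd2 libraries, where Krt15 fell by 1.20 (limma adjusted p = 5.65e-07) while Krt14 rose by 0.78 (adjusted p = 2.22e-05). With MCTP, Krt14 rose by 1.19 (adjusted p = 0.000274), and Krt15 did not pass (0.07, adjusted p = 0.52). Trp63, a defining basal factor, lay between 4.77 and 4.95, with means of 4.87 in control, 4.77 in shNsd2 and 4.90 in MCTP cells. It passed as lower in shNsd2 against control. That call was lost without control replicate 1 (limma adjusted p = 0.121) or 3 (0.073) and without any 1 of the shNsd2 libraries. It also passed as lower in shNsd2 than in MCTP cells, a call lost without shNsd2 replicate 2 (0.0565) or 3 (0.0542). Of 6 fibroblast markers 3 were used, with Col1a1 the most abundant and log2 sums of 8.34, 8.23 and 8.33 in control, 8.07, 8.04 and 7.90 in MCTP and 8.01, 8.07 and 8.02 in shNsd2 libraries. The sum is mostly Col1a1, which fell by 0.30 with shNsd2 (limma adjusted p = 0.00111) and by 0.33 with MCTP (adjusted p = 0.0105). Pdgfra instead rose by 0.13 with shNsd2 (adjusted p = 0.00161) and did not pass with MCTP (0.05, adjusted p = 0.0955). Dcn was below the filter. Cd68, the 1 of 6 leukocyte markers used, was 6.50, 6.51 and 6.60 in control, 7.20, 7.15 and 7.44 in MCTP and 6.78, 6.78 and 6.72 in shNsd2 libraries. Cdh5, the 1 of 5 endothelial markers used, lay between 3.47 and 3.71, below the filter, and 0 of 5 lung epithelial markers were analysed here. The part of these markers in the results above was not tested.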

How the data were processed

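The authors deposited log2 values for 12842 genes, scaled between libraries, with no transform named in the file and no read depth. The study's methods state a DESeq2 variance stabilization of counts for its tumour profiles, which is not stated for these libraries. The submitters' processing notes name bcl2fastq 1.8.4, TopHat, Cufflinks, DESeq, DESeq2 and build mm9. Groups follow the sample titles, and 3 of 12 value columns that match no sample were not used.

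Genes with at least 3 of 6 libraries above 3.78, the median of the lowest 10% of values, entered limma fits of the groups compared (limma 3.58.1, R 4.3.3, moderated with a mean trend). P-values were adjusted by the Benjamini-Hochberg method across every gene tested, and those under 0.05 were called. D cyclin shares used exact permutation tests over libraries (scipy 1.17.1, Python 3.11.15). Transcript lengths and GC content came from GENCODE M21 (GRCm38), matched for 12513 genes. The procedures were tested on simulated data. For the limma fits these had independent noise per gene and log2 changes of 0.5 or 1. At 0.5, 82, 77 and 91% of changed genes were recovered (shNsd2 and control, MCTP and control, shNsd2 and MCTP). Those values held no GC trend and no outlying library, and smaller changes were not simulated.

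Members and gene lists were chosen with earlier results of these data known. Genes named are the members, the NSD family, preset regulators and markers, and up to 3 largest rises and falls per list and comparison whose groups do not overlap. Part of what this rule selects is not reported here. The motif search and the test of alternatives on the count over all genes were added after the data had been seen. Alternatives were no filter, a stricter filter, all 9 libraries in one fit, a replicate block, quantile normalization, median centring, GC correction (lowess, span 0.3), no variance trend, other transcript lengths and each library left out.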

Additional observations from a re-analysis of the deposited data

How the results depend on the processing

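The replicate numbers do not pair the libraries: correlations of same-numbered deviations ran from -0.81 to 0.61, and 0 of 6, 2 of 6 and 0 of 6 libraries correlated best with their own number (shNsd2 and control, MCTP and control, shNsd2 and MCTP). With the replicate block, 4515, 3399 and 3794 genes passed in these comparisons, and 4, 5 and 2 of the 9 genes. The calls lost under it were those of Ccnd1 (adjusted p = 0.139) and Cdk4 (0.0889) in shNsd2 against MCTP.

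The 9 genes kept direction against control with shNsd2 under every alternative run. The stricter filter gave no value for Ccne1 and Rb1 with shNsd2, for Ccne1 with MCTP and for Rb1 in shNsd2 against MCTP. With MCTP, 3 to 6 of them passed with a library left out, and for shNsd2 against MCTP 2 to 5, with 2 after median centring and 7 after GC correction. Over all genes, 5135 of 12225 passed for shNsd2 against MCTP after median centring and 6875 of 11935 after GC correction. Genes of the 6 pathway lists past the threshold with MCTP numbered 45 of 112, with 6 higher and 39 lower (all genes 18% and 17.2%), and 12 to 65 with a library left out. With shNsd2 they numbered 58 of 112, with 44 higher and 14 lower (all genes 23.1% and 24.8%), and 43 to 63. For shNsd2 against MCTP they numbered 73 of 112, with 64 higher and 9 lower (all genes 20.6% and 22.6%), and 50 to 90. Over all genes, a count added after seeing the data, the stricter filter, which tests fewer genes, gave 3306, 2447 and 2813. Leaving a library out gave 2029 to 7372 with MCTP and 3361 to 7756 for shNsd2 against MCTP, the higher values without MCTP replicate 2.

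Direction turned with MCTP for Ccnd2 with a library left out (-0.0542 without control replicate 1 and -0.0107 without MCTP replicate 3, up to 0.0362), for Cdk4 after quantile normalization (0.0003), median centring (0.0146) and with a library left out (-0.0739 to 0.051, the latter without MCTP replicate 2), and for Rb1 after GC correction (0.1074). For shNsd2 against MCTP it turned without MCTP replicate 2 for Cdkn1b (-0.1242 to 0.0142 with a library left out) and Rb1 (-0.13 to 0.1306). None of these passed the test in the comparison as reported, and the cause was not tested.

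D cyclin shares depend on length. With the longest transcript, Ccnd1 made up 81.0, 81.9 and 78.6% in control, shNsd2 and MCTP cells, Ccnd3 3.16, 3.03 and 4.33%, and Ccnd2 17.0% in MCTP cells. Without division by length, Ccnd1 made up 73.0, 74.2 and 70.3%, Ccnd2 24.1, 23.0 and 25.7%, and Ccnd3 2.93, 2.83 and 3.99%. Small changes of weakly expressed genes and depth effects cannot be judged without counts.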

Other observations

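Of 14 regulators of the Cdkn2a locus and of the Arf, Mdm2 and p53 axis, 5 rose and 1 fell with shNsd2, and 1 rose and 4 fell with MCTP. Over all genes, 23.1% rose and 24.8% fell with shNsd2, and 18% rose and 17.2% fell with MCTP. With MCTP, 0 fell without MCTP replicate 1, 2, 1 and 2 without control replicates 1, 2 and 3, and 2 without MCTP replicate 3, and with shNsd2 2 fell without shNsd2 replicate 3. After GC correction 1 rose and 8 fell with MCTP, and 6 rose and 2 fell with shNsd2. Mdm2, the ligase that degrades p53, had log2 values of 11.50, 11.38 and 11.43 in control, 12.21, 12.55 and 12.16 in MCTP and 11.59, 11.61 and 11.72 in shNsd2 libraries, and the groups did not overlap. It rose by 0.87 with MCTP (limma adjusted p = 0.000929) and by 0.20 with shNsd2 (adjusted p = 0.00713). With shNsd2, Cbx2, a Polycomb subunit, rose by 0.46 (adjusted p = 5.4e-05), Trp53 by 0.40 (9.05e-05) and Cbx7 by 0.25 (0.00226), and Twist1 fell by 0.16 (0.00331). With MCTP, Dmtf1, an activator of Arf, fell by 0.53 (0.0119, and 0.0564 without MCTP replicate 1), Ezh2 fell by 0.27 (0.0211) and Cbx7 fell by 0.24 (0.0206), while the Trp53 value was 0.04 (0.702). The Ezh2 call was lost without control replicate 1 (0.0794) or 2 (0.0654) or MCTP replicate 1 (0.0859) or 3 (0.0564), and the Cbx7 call without control replicate 2 (0.0831) or 3 (0.0806) or MCTP replicate 1 (0.0921). In shNsd2 against MCTP cells, 8 of the 14 were higher, beside 20.6% of all genes, led by Npm1 (0.66, 0.00709), Cbx2 (0.55, 0.000519) and Cbx7 (0.48, 0.000551), and 2 were lower, beside 22.6%, Mdm2 (-0.67, 0.00208) and Twist1 (-0.15, 0.00697, and 0.0825 after GC correction).

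Of 13 genes listed as mitogenic inputs to cyclin D and p27, 4 rose and 2 fell with shNsd2 (all genes 23.1% and 24.8%), and 1 rose and 5 fell with MCTP (all genes 18% and 17.2%). The list mixes genes of opposite effect, so these counts give no direction of mitogenic input. With shNsd2, 2 rose without shNsd2 replicate 2, and with MCTP, 2 fell without control replicate 2 or 3, and 3 without MCTP replicate 1 or 3. After GC correction 4 rose and 4 fell with shNsd2. With shNsd2, Fosl1 rose by 0.30 (limma adjusted p = 0.00128), Akt1 by 0.26 (0.00194) and Fos by 0.21 (0.0184, and 0.0689 without shNsd2 replicate 2), while Foxo1, a factor known to activate Cdkn1b, fell by 0.28 (0.000436) and Spry2 fell by 0.27 (0.000805). With MCTP, Foxo3 rose by 0.28 (0.005), and the Ets factors Etv4 and Etv5 fell by 0.45 (0.00132) and fell by 0.35 (0.00327). Myc fell by 0.30 with MCTP (0.0149) and rose by 0.19 with shNsd2 (0.0264). The first call was lost without control replicate 2 (0.0664) or 3 (0.0607), and the second without shNsd2 replicate 2 (0.0772) or 3 (0.0699). In shNsd2 against MCTP cells, 8 were higher and 3 lower (all genes 20.6% and 22.6%), and 5 and 2 without shNsd2 replicate 1 or 2. Myc (0.48, 0.000269), Etv4 (0.42, 0.00109) and Etv5 (0.36, 0.00133) were higher, and Foxo3 (-0.35, 0.00133), Foxo1 (-0.23, 0.00683) and Spry2 (-0.17, 0.0457) lower. Spry2 was lost there without shNsd2 replicate 1 (0.135), 2 (0.144) or 3 (0.108) or MCTP replicate 1 (0.157).

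Rbl1 and Cdkn1b had the widest ranges of group means, 0.55 and 0.44. Each gene's log2 values were centred on its own mean over the 9 libraries, so that levels play no part. Of the 12842 genes, 6130 were searched, and the others were not compared. The centred profiles nearest to Rbl1 among these 6130 genes were those of Topbp1, Zzz3 and Plk4. Their root mean square differences from Rbl1 were 0.0349, 0.0386 and 0.0409 on the log2 scale, beside a median of 0.279. The profiles nearest to Cdkn1b were those of Ppp3cb, Bnip3l and Snx2, at 0.0221, 0.0327 and 0.0409, beside a median of 0.253.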
